A study of Sus scrofa with 26 samples.

Results

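The enzymes described here form NADPH, in the cytosol or the endoplasmic reticulum, or pass carbon through the pentose phosphate pathway. They are ME1 (cytosolic malic enzyme), PGD (6-phosphogluconate dehydrogenase), IDH1 (cytosolic NADP-dependent isocitrate dehydrogenase), TKT (transketolase), TALDO1 (transaldolase) and H6PD (hexose-6-phosphate dehydrogenase of the endoplasmic reticulum). Probes were taken where the symbol, the accessions or the description of the array named one of these 6 genes. This gave 13 of the 60305 probes, for 5 of the 6 genes and of the 11762 genes named on the array, and no probe of H6PD was found. The set was chosen by measured values: ME1 was selected on its difference in log2 intensity between temperatures in these arrays. Every difference between temperatures of these genes is therefore a description. All 13 probes were tested, and 12 of them were well above background on all 26 arrays.

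NADPH is the reducing agent of fatty acid synthesis, desaturation and the glutathione and thioredoxin systems. Malic enzyme forms it while turning malate from exported citrate back into pyruvate, and PGD forms it in the oxidative branch of the pentose phosphate pathway. Transketolase and transaldolase form no NADPH themselves but return pentose phosphates to glycolysis, and cytosolic IDH1 forms NADPH from isocitrate. In pigs, adipose tissue is the main site of fatty acid synthesis from glucose.

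The animals were castrated male growing pigs of 3 breeds, Creole, Large White (LW) and their F1 cross. One set was slaughtered at thermoneutrality (TN, 24 °C) and the other after heat stress (HS), which the labels give as 30 °C and the series text as 32 °C for 5 days. There were 3 Creole TN, 4 F1 TN, 4 LW TN, 5 Creole HS, 5 F1 HS and 5 LW HS arrays. The TN animals were killed before the room was warmed, so temperature, slaughter day and age cannot be told apart. Heated pigs also ate less according to the paper, so feed intake cannot be told apart from temperature either. RNA came from whole tissue, in which fewer cells of a type and less RNA per cell cannot be told apart.

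The arrays had 41314 to 46185 spots well above background, with no saturated spot, and lay on 5 slides, each with its own scan and each holding both temperatures. Adipocyte markers were bright: ADIPOQ had a mean log2 intensity of 17.42 and FABP4 of 18.36. The adipocyte score of 7 genes differed by 0 between temperatures, and ADIPOQ alone of them passed the threshold, with a rise of 0.16 in HS. Of the other cell type lists, the red blood cell score (mean of 5 centred genes of 8) was lower in HS, at -0.49 to 0.37 against -0.03 to 0.57 in TN, and 2 of those 5 genes passed the threshold, HBB, which fell by 0.85, and EPB42, which fell by 0.38. Of the others, AHSP gave -0.47, ALAS2 0.04 and SLC4A1 0.06. The fibroblast and matrix score of 9 genes was higher in HS by 0.26, with 4 genes past the threshold, and the nerve and Schwann cell score of 6 genes by 0.56, with 3 past it. Endothelial CDH5 fell by 0.23, and the keratinocyte and skeletal muscle scores differed by 1.03 and 0.50 with no gene past the threshold. The part of these cell types in the differences between temperatures was not tested. Levels below are log2 of the normalised intensity, in which a difference of 1 is a doubling, and levels of different probes cannot be compared with each other.

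The probes differ in what they can show, and the sequences that matter most are given here as deposited, 5′ to 3′, all read from the array files. The ME1 probes O15000 and A_72_P444471 have the same 60 bases and serve as a repeat of the measurement, whereas A_72_P306288 lies elsewhere and shares no run over 7 bases with them. The first 30 bases of each ME1 sequence are:
ME1 O15000: cccttttcatagaggaaactaaggggaaga
ME1 A_72_P306288: gaaggtaacatttagccaagaatttcctca

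Both probes of PGD share a run of 34 bases, and the TALDO1 probes A_72_P175181 and O2035 share 53, so these pairs are not independent. The probes TKT A_72_P177501 and TALDO1 A_72_P293424 share no run over 6 bases with the other probes of their genes and are shown because they give each gene a separate measurement:
TKT A_72_P177501: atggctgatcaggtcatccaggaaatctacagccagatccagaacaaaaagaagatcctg
TALDO1 A_72_P293424: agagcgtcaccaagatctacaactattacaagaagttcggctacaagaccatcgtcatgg

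The IDH1 probes call for more care. A_72_P052681 was named only by its description, a bovine transcript cluster, and was dim, at 5.45 to 7.48 on single arrays. O9108 carries the symbol IDH1 and was also dim. Its reverse complement, but not the probe itself, shares a run of 21 bases with a probe of the related mitochondrial enzyme IDH2. The capitals mark that run in the reverse complement of the IDH1 probe and in the IDH2 probe as deposited:
IDH1 O9108 reverse complement: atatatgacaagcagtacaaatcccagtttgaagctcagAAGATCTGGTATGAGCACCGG
IDH2 A_72_P757430: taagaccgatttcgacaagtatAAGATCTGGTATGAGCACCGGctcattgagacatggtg

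Of 1152 probes of the same design series as O9108 that share 20 bases with another probe of their gene, 70 share it only on the opposite strand, or 6.08%. The 2 IDH1 probes share no run over 6 bases. Across the 26 arrays their correlation was 0.429, against 0.999 for the identical ME1 probes and 0.973 for the PGD pair. The run of 21 bases puts O9108 on the strand opposite to that IDH2 probe, so O9108 may not detect IDH1 mRNA. Its values below are those of the probe, not settled as those of IDH1. IDH1 values carry less weight than those of the other genes. Where a single value is given for IDH1, it is that of A_72_P052681, the brighter of the pair, and O9108 can differ from it.

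ME1 was lower in HS than in TN in each breed, and it had the largest difference of the 5 genes. In TN pigs the ME1 probe O15000 read 14.85, 15.26 and 14.68 in Creole, 14.58, 13.99, 15.19 and 14.22 in F1, and 13.91, 14.56, 14.73 and 13.80 in LW. In HS pigs it read 13.82, 13.87, 14.20, 14.02 and 12.07 in Creole, 13.60, 12.70, 13.23, 14.66 and 14.61 in F1, and 12.36, 12.24, 11.83, 12.59 and 13.01 in LW. All 5 Creole HS and all 5 LW HS arrays lay below every TN array of their breed, as did 3 of 5 F1 HS arrays, and the other 2 F1 HS arrays were within the TN range. Over the breeds ME1 averaged 14.52 ± 0.50 (SD) on the 11 TN arrays and 13.25 ± 0.93 (SD) on the 15 HS arrays.

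With breed held fixed, ME1 differed by -1.30 ± 0.25 (SE), which is 2.47-fold lower in HS, and 13 of 15 HS arrays were below the TN mean of their own breed. The same-sequence probe A_72_P444471 gave -1.30 ± 0.25, and the difference between these probes had an SD of 0.05 over the arrays. The separate probe A_72_P306288 gave -1.69 ± 0.35, or 3.22-fold lower, with all 15 HS arrays below the TN mean of their breed. Among the 44703 tested probes these differences ranked 12, 13 and 2 from the most negative. They are the values for which ME1 was chosen.

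**Figure D1:**
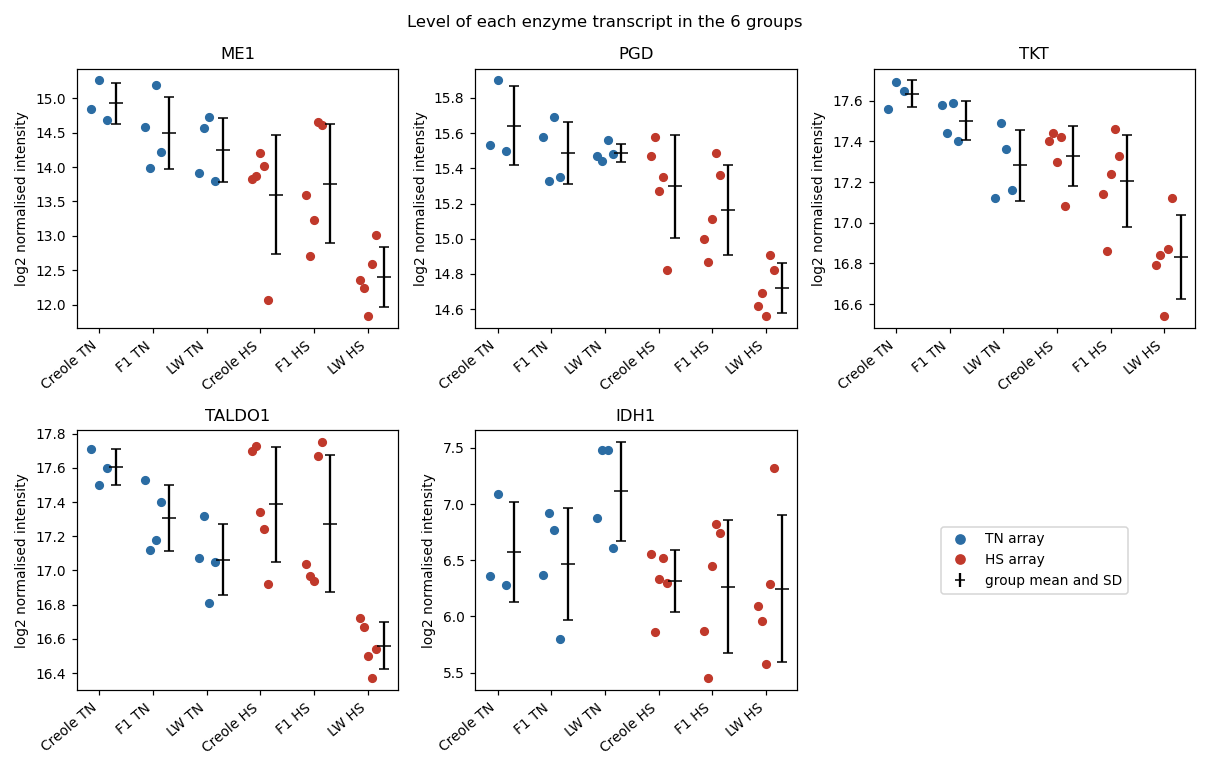
Log2 normalised intensity of the brightest probe of each gene (y axis) in the 6 groups (x axis), 1 point per array, blue for TN and red for HS, with the group mean and SD in black. LW HS had the lowest group mean for every gene shown, by 0.02 only for IDH1, whose groups overlapped widely.

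The order of the ME1 group means was Creole TN (14.93), F1 TN (14.50), LW TN (14.25), F1 HS (13.76), Creole HS (13.60) and LW HS (12.41). The steps between neighbours down to Creole HS were 0.16 to 0.49, each smaller than the larger SD of the neighbouring groups. The step of 1.19 down to LW HS was larger than that SD of 0.87. Within breeds, the difference between HS and TN was -1.33 ± 0.44 (SE) in Creole, -0.74 ± 0.40 in F1 while LW had -1.84 ± 0.40, the last being 3.59-fold lower. The F1 value was -0.47 without F1 HS replicate 2. With the red blood cell score as a covariate, it was -0.20 in F1, -1.06 in Creole and -1.16 in LW.

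PGD, the enzyme of the oxidative pentose phosphate branch that follows PGLS, was also lower in HS. The PGD probe O8797 read 15.53, 15.90 and 15.50 in Creole TN and 15.47, 15.58, 15.27, 15.35 and 14.82 in Creole HS. For F1 it read 15.58, 15.33, 15.69 and 15.35 in TN, and 14.87 at the lowest, 15.11 at the median and 15.49 at the highest in HS. In LW the TN arrays were close together, at 15.47, 15.44, 15.56 and 15.48, and the HS arrays read 14.62, 14.69, 14.56, 14.91 and 14.82. The LW groups were thus well apart, while in Creole and F1 the HS range reached into the TN range. The difference was -0.49 ± 0.09 (SE), or 1.40-fold lower in HS, with 15 of 15 HS arrays below the TN mean of their breed. It was -0.35 ± 0.15 in Creole, -0.32 ± 0.14 in F1, while LW had -0.77 ± 0.14, and the Creole value was -0.22 without Creole TN replicate 2. The overlapping probe A_72_P411558 gave -0.51 ± 0.11.

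TKT, the transketolase that moves carbon units between sugar phosphates, was lower in HS by each of its 3 probes. The TKT probe A_72_P024116 averaged 17.63 ± 0.07 (SD, n = 3) in Creole TN, 17.50 ± 0.09 (n = 4) in F1 TN and 17.28 ± 0.17 (n = 4) in LW TN. In HS it averaged 17.33 ± 0.15 in Creole, 17.21 ± 0.23 in F1 and 16.83 ± 0.20 in LW (n = 5 each). In LW the highest HS array and the lowest TN array both read 17.12, with the HS array below before rounding. The difference was -0.35 ± 0.06 (SE), with -0.30 ± 0.12 in Creole, -0.30 ± 0.11 in F1 and -0.45 ± 0.11 in LW. For the TKT probe O13899 every one of the 15 HS arrays was below every TN array of its breed, with a difference of -0.48 ± 0.07. The separate TKT probe A_72_P177501 gave -0.57 ± 0.09, or 1.49-fold lower.

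TALDO1, the transaldolase that works beside transketolase, had the smallest estimate of the 5 genes by their brightest probes. The TALDO1 probe A_72_P175181 read 17.71, 17.50 and 17.60 in Creole TN and 17.70, 17.73, 17.34, 17.24 and 16.92 in Creole HS, so the ranges overlapped. In F1 it read 17.53, 17.12, 17.18 and 17.40 in TN and 17.04, 16.97, 16.94, 17.67 and 17.75 in HS, where 3 arrays were below and 2 above all TN arrays. In LW it read 17.07, 17.32, 16.81 and 17.05 in TN and 16.72, 16.67, 16.50, 16.37 and 16.54 in HS, with no overlap. The difference was -0.25 ± 0.10 (SE) over the breeds, -0.22 ± 0.18 in Creole, -0.03 ± 0.17 in F1, while LW had -0.51 ± 0.17. The separate TALDO1 probe A_72_P293424 gave -0.36 ± 0.10.

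For IDH1, the probe A_72_P052681 differed by -0.45 ± 0.19 (SE), with group means from 6.25 in LW HS to 7.11 in LW TN and overlapping groups in every breed. On 1 F1 HS array it was not well above background. The probe O9108, listed under IDH1, differed by -0.37 ± 0.09, with means of 6.66, 6.52 and 6.48 in Creole, F1 and LW TN, and of 6.46, 6.17 and 5.94 in the same order in HS. All 5 LW HS arrays lay below all LW TN arrays for this probe, at 5.72 to 6.31 against 6.34 to 6.65.

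All 13 probes had a difference below 0. Of the 5 brightest probes, those of ME1, PGD and TKT were past the threshold for lower levels in HS, beside 7.02% of all tested probes in that direction, and nothing is read from this count because the contrast chose the set. The lack of overlap in LW for the brightest probes of ME1, PGD, TKT and TALDO1 stands beside 5.04% of probes for which every LW HS array was below every LW TN array. The same share was 3.56% in Creole, where the brightest probes of ME1 and TKT did not overlap, and 3.73% in F1, where the brightest probe of each of the 5 genes overlapped. The separate probes differed in part. ME1 A_72_P306288 overlapped in Creole, with 4 of 5 HS arrays below every TN array, and TKT A_72_P177501 overlapped in LW, also with 4 of 5.

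**Figure D2:**
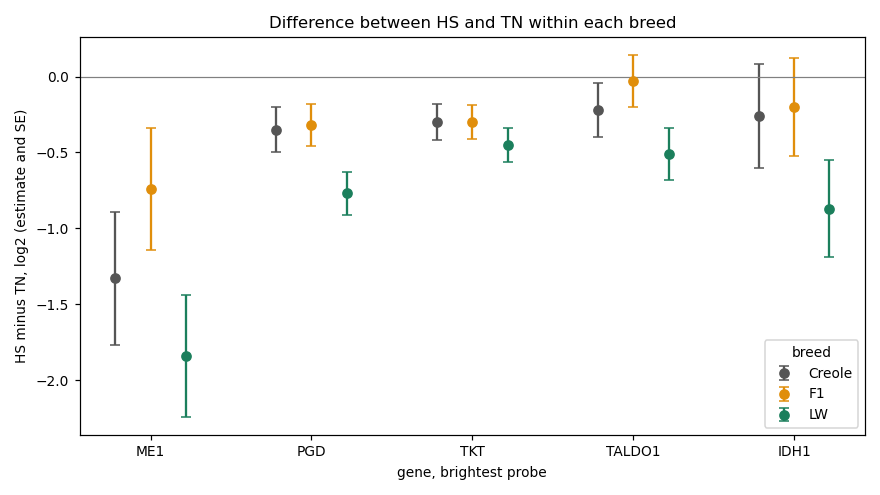
HS minus TN difference in log2 intensity within each breed (y axis, estimate with its SE) for the brightest probe of each gene (x axis). The LW estimate is the lowest for each of the 5 genes, with error bars that overlap those of other breeds for several of them.

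The differences in LW were the largest in size for each gene, but a difference between breeds in the temperature effect was not shown. In limma's moderated F test of the breed by temperature interaction, the adjusted p was 0.897 for ME1, PGD and TALDO1, 0.903 for IDH1 and 0.93 for TKT. None of the 13 probes passed, beside 0.00224% of all tested probes. Before adjustment 1 of the 13 was under 0.05, the PGD probe A_72_P411558.

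Slides held several groups, and ME1 was lower in HS on each of the 5 slides, by -1.21, -1.59, -2.24, -0.51 and -0.93 for slides 1 to 5, with breed not held fixed. With the slide as a fixed block the difference was -1.27 ± 0.26 (SE). PGD was also lower in HS on every slide (-0.83 to -0.20), and TKT too (-0.58 to -0.06), while TALDO1 was lower on 4 slides and higher by 0.40 on slide 5. The IDH1 probe A_72_P052681 was higher by 0.22 on slide 4 and lower on the others. The red blood cell score moved with temperature, and with that score as a covariate ME1 differed by -0.80 ± 0.27, PGD by -0.35 ± 0.10, TKT by -0.26 ± 0.08, TALDO1 by -0.11 ± 0.13 and IDH1 by -0.23 ± 0.23. In that fit none of the 5 brightest probes passed the threshold, and the number of tested probes that did was 528 against 5447. The part of blood content in these differences was not tested.

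The breeds are the comparison that did not enter the choice of these genes. LW pigs had lower levels than Creole pigs for ME1, PGD, TKT and TALDO1, with temperature held fixed, and F1 estimates lay nearer Creole. For ME1 the probe O15000 averaged 14.10 ± 0.97 (SD, n = 8) in Creole, 14.09 ± 0.79 (n = 9) in F1 and 13.23 ± 1.06 (n = 9) in LW. LW minus Creole was -0.96 ± 0.30 (SE), or 1.95-fold lower in LW, with adjusted p = 0.0337 in limma. The separate probe A_72_P306288 gave -1.16 ± 0.42 with adjusted p = 0.0663, so the call rests on the brighter site. At TN the difference of the O15000 means was -0.68, with 3 of 4 LW arrays below every Creole array, and at HS it was -1.19, with 1 of 5 below.

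The ME1 call was close to the threshold. It was lost on leaving out any 1 of 10 arrays (Creole HS replicates 1 to 4, Creole TN replicate 2, LW HS replicates 1 to 4 or LW TN replicate 4), with adjusted p from 0.0506 to 0.0716 and estimates from -0.95 to -0.85. Without Creole HS replicate 5, whose ME1 level of 12.07 was far below the other Creole HS arrays, it was -1.18 with adjusted p = 0.00404. Within slides, LW minus Creole of ME1 was -2.06, -2.48 and -0.52 on slides 2 to 4 and 2.20 on slide 5, where that same Creole HS array met 2 LW TN arrays, and slide 1 held no LW array. These slide values do not hold temperature fixed. On slide 2, Creole TN replicate 1 and Creole HS replicate 2 met LW HS replicates 1 and 2. On slide 3, Creole TN replicate 2 met LW TN replicate 1 and LW HS replicates 3 and 4. With temperature held fixed and the slide as a fixed block, the ME1 estimate of LW minus Creole was -0.93 ± 0.32 with adjusted p = 0.0573.

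TALDO1 was lower in LW by each of its 3 probes. The TALDO1 probe A_72_P175181 averaged 17.47 ± 0.28 (SD, n = 8) in Creole, 17.29 ± 0.31 (n = 9) in F1 and 16.78 ± 0.31 (n = 9) in LW. At TN all 4 LW arrays, and at HS all 5, were below every Creole array at the same temperature. LW minus Creole was -0.70 ± 0.13 (SE), or 1.63-fold lower, with adjusted p = 0.00113, and the separate probe A_72_P293424 gave -0.63 ± 0.12 with adjusted p = 0.00155. For that probe 4 of 5 LW HS arrays were below every Creole HS array, so its ranges overlapped at HS. The estimate of A_72_P175181 was larger in size than its -0.25 between temperatures, a contrast that was not tested.

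TKT differed by -0.43 ± 0.08 (SE) between LW and Creole with adjusted p = 0.00125 for A_72_P024116, and by -0.49 ± 0.08 and -0.62 ± 0.11 for O13899 and A_72_P177501, with adjusted p = 0.000505 and 0.000844. PGD differed by -0.40 ± 0.11 with adjusted p = 0.0138 for O8797 and by -0.45 ± 0.13 with adjusted p = 0.0243 for A_72_P411558. For PGD the LW and Creole means were closer at TN (-0.16) than at HS (-0.58), a change that the interaction test above did not establish.

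The IDH1 probes went opposite ways. A_72_P052681 gave 0.19 ± 0.23 (SE) with adjusted p = 0.637, and O9108 gave -0.38 ± 0.11 with adjusted p = 0.0215, so no direction can be stated for IDH1. Over the 5 brightest probes, 4 were lower in LW past the threshold, beside 7.43% of all tested probes in that direction, and over all 13 probes 11 were past it.

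**Figure D3:**
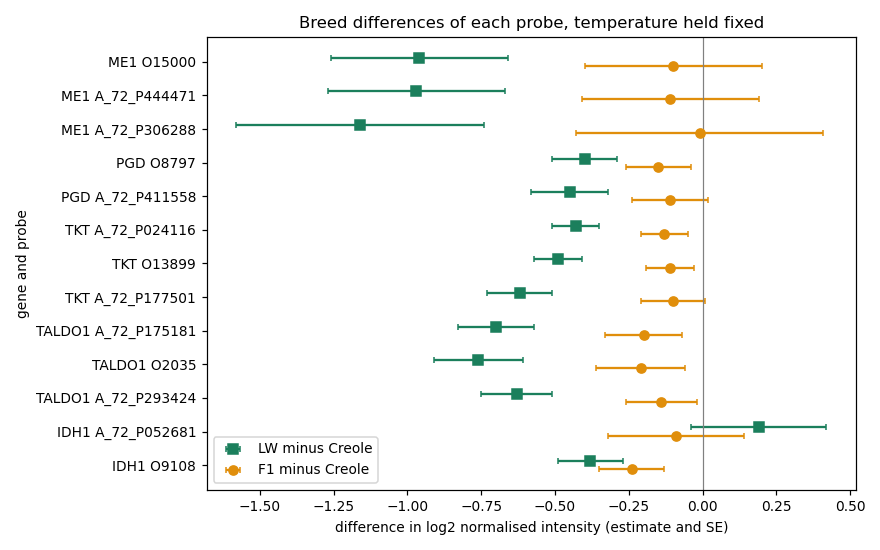
Difference in log2 intensity of LW minus Creole (green squares) and F1 minus Creole (orange circles) for each of the 13 probes (y axis), with temperature held fixed and bars for the SE. LW lay below Creole for every probe but IDH1 A_72_P052681, and F1 estimates lay nearer 0 than LW estimates.

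The F1 means lay nearer Creole than LW for ME1, PGD, TKT and TALDO1, but did not differ from the middle of the parent breeds past the threshold. F1 minus Creole was -0.10 ± 0.30 (SE) for ME1, -0.15 ± 0.11 for PGD, -0.13 ± 0.08 for TKT and -0.20 ± 0.13 for TALDO1, with adjusted p of 0.666 or more in limma for the brightest probes, where 0.262% of all probes passed. F1 minus LW was 0.31 ± 0.08 for TKT with adjusted p = 0.0291 and 0.51 ± 0.12 for TALDO1 with adjusted p = 0.0253, both close to the threshold and lost under several other settings. For ME1 it was 0.86 ± 0.29 with adjusted p = 0.0898, and for PGD 0.25 ± 0.10 with adjusted p = 0.162, beside 4.22% of all probes past the threshold. The ME1 value passed in limma only without Creole HS replicate 5 (adjusted p = 0.0447). F1 minus Creole of ME1 lay from -0.32 to 0.01 over the arrays left out in turn. With the adipocyte score as a covariate it was 0.27. F1 minus the mean of the parent breeds was 0.38 ± 0.26 for ME1, 0.05 ± 0.09 for PGD, 0.09 ± 0.07 for TKT and 0.15 ± 0.11 for TALDO1. No probe of the set passed that test, beside 0.00671% of all tested probes, and the lowest adjusted p was 0.528. The F test over the 3 breeds gave adjusted p = 0.0516 for ME1, 0.0354 for PGD, 0.003 for TKT, 0.00266 for TALDO1 and 0.664 for IDH1, where 11.3% of all tested probes passed.

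The adipocyte marker score was lower in LW (-0.28 to 0.02) than in Creole (0.03 to 0.42), without overlap, and among its 7 measured genes 1 passed, LEP, with LW minus Creole of -1.23. With that score as a covariate, LW minus Creole was -0.44 for ME1, -0.27 for PGD, -0.40 for TKT and -0.50 for TALDO1, none past the threshold, and 529 probes in all passed against 6401. Leaving LEP out, the score of 6 genes overlapped between the breeds (-0.16 to 0.14 in LW and -0.08 to 0.13 in Creole), a setting chosen after seeing the data. The estimates were then -0.88 for ME1 (adjusted p = 0.0941), -0.40 for PGD (adjusted p = 0.037), -0.38 for TKT (adjusted p = 0.00825) and -0.66 for TALDO1 (adjusted p = 0.00604) in limma. The fibroblast and matrix score was higher in LW than in Creole by 0.32, at -0.12 to 0.60 against -0.92 to 0.28, with 3 of 9 genes past the threshold (COL1A1, COL1A2 and DCN). The endothelial score was higher by 0.23, with 1 of 6 genes past it (KDR), and PMP22 was the 1 nerve and Schwann cell gene of 6 to pass, also higher in LW. The B cell gene CD79B was higher too (0.42). The skeletal muscle score differed by -0.89 and the keratinocyte score by 0.91, with no gene past the threshold and with ranges that overlapped widely. The part of fat cell content, or of these other cell types, in the breed differences was not tested.

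Pigs of the same breed and temperature differed in these genes together. The correlation of ME1 with each other gene was taken over the 26 arrays after removing the group means, with permutation p-values adjusted over the 14 pairs computed. ME1 and PGD had r = 0.846 (adjusted permutation p = 0.000233) and rho = 0.783 (adjusted permutation p = 0.000467), and r was 0.739 without the 2 arrays farthest from the median of ME1. ME1 and TKT had r = 0.83 (adjusted permutation p = 0.00021) and rho = 0.837 (adjusted permutation p = 0.00035), with r = 0.768 without those arrays. ME1 and TALDO1 had r = 0.565 (adjusted permutation p = 0.0349) but rho = 0.411 (adjusted permutation p = 0.108) and r = 0.372 without those arrays, so this relation rests on those 2 arrays.

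ME1 and the IDH1 probe A_72_P052681 had r = 0.593 (adjusted permutation p = 0.00462) and rho = 0.663, and ME1 and the probe O9108 had r = 0.649 (adjusted permutation p = 0.00462) and rho = 0.589. PGD and TKT had r = 0.749 (adjusted permutation p = 0.00021) and rho = 0.765. The only pair whose r was near 0 was IDH1 A_72_P052681 with TALDO1, at 0.11 (adjusted permutation p = 0.626). With slide means removed as well, r was 0.894 for ME1 and PGD, 0.805 for ME1 and TKT and 0.597 for ME1 and TALDO1. All these values come from the same RNA and array, so what an array's quality adds to them was not tested.

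Single animals deviated in several of the genes at once. Creole HS replicate 5 deviated from its group mean by -1.53 for ME1, -0.48 for PGD, -0.25 for TKT and -0.47 for TALDO1, and by -0.01 for the IDH1 probe A_72_P052681. The probe O9108 read 6.12 on that array, against a Creole HS mean of 6.46. F1 HS replicates 4 and 5 lay above their group mean for ME1 (0.90 and 0.85), PGD (0.32 and 0.19), TKT (0.26 and 0.12), TALDO1 (0.40 and 0.47) and IDH1 (0.55 and 0.47). F1 HS replicate 2 lay below it for all 5 genes, at -1.06 for ME1 and -0.82 for IDH1.

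**Figure D4:**
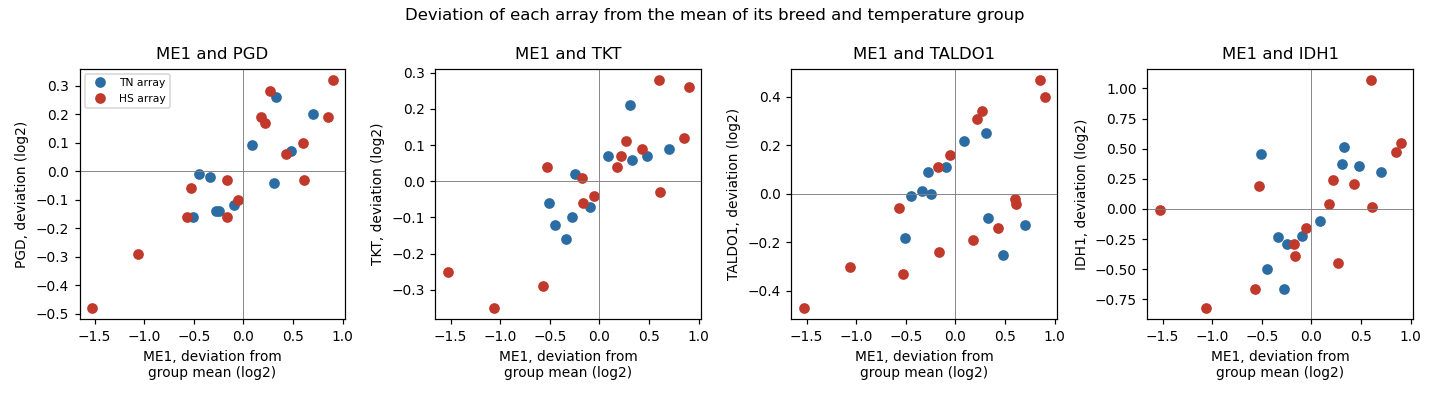
Deviation of each array from the mean of its breed and temperature group in log2 units, for ME1 (x axes) and for PGD, TKT, TALDO1 and IDH1 (y axes), with TN arrays in blue and HS arrays in red. The points rise together most closely for PGD (r = 0.846) and TKT (r = 0.83).

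Among 10103 other genes with a tested probe, PGD ranked 52 and TKT 63 by their within-group correlation with ME1, and TALDO1 653. The genes most like ME1 included MPC2 (a subunit of the mitochondrial pyruvate carrier, r = 0.935), LOC100522678 (0.919), UQCR10 (a subunit of respiratory complex III, 0.918), WDFY4 (0.911), VDAC1 (the outer mitochondrial membrane channel, 0.91), ATP5L (an ATP synthase subunit, 0.908), NDUFA1 (a complex I subunit, 0.907), PDHB (a pyruvate dehydrogenase subunit, 0.903) and DLAT (the acetyltransferase of the same complex, 0.903). Without removing the group means, the r of these genes ranged from 0.777 for UQCR10 to 0.962 for LOC100522678. The 5 genes most opposite were SUMO2 (-0.898), RPL13A (-0.898), ARGLU1 (-0.88), INPP5K (-0.875) and C14H1orf198 (-0.866). The median over all genes was -0.019, and these correlations over 26 arrays are a description.

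The other genes of NADPH supply included some that fell in HS and none that rose. NADK, which makes NADP from NAD, fell by 0.30 (adjusted p = 0.0463), and PGLS, the lactonase of the step before PGD, by 0.24 (adjusted p = 0.0491). The mitochondrial malic enzymes did not pass, with HS minus TN of -0.08 (adjusted p = 0.443) for ME2 and 0.11 (adjusted p = 0.51) for ME3, nor did mitochondrial IDH2 with -0.06 (adjusted p = 0.578). Of the 12 measured genes of this list of 14, 4 fell and 0 rose past the threshold with a median of -0.13, beside 7.02% lower and 5.17% higher of all tested probes and a median of 0.002. The lists here and in the paragraphs below were chosen with earlier results of these data known. Their counts and adjusted p-values are therefore a description.

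The genes that export citrate and return its carbon to the mitochondrion make the substrate of ME1. All 8 were measured with differences below 0 and a median of -0.32, and 4 fell past the threshold, beside 7.02% of all tested probes. SLC25A1, the mitochondrial citrate carrier, fell by 0.63 (adjusted p = 0.0287), MDH2, mitochondrial malate dehydrogenase, by 0.50 (adjusted p = 0.00355) and CS, citrate synthase, by 0.33 (adjusted p = 0.000447). The list of lipid synthesis held enzymes that use NADPH and others that do not, such as the acetyl-CoA carboxylases and ACSS2. It gave 4 falls and 0 rises among 12 measured, with a median of -0.28, beside 7.02% lower and 5.17% higher of all tested probes. ELOVL6, a fatty acid elongase, fell by 0.86 (adjusted p = 0.00509), and SCD, the stearoyl-CoA desaturase, by 0.68 (adjusted p = 0.0158).

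Among 9 measured genes of redox enzymes that use NADPH, 4 fell and 1 rose, beside 7.02% lower and 5.17% higher of all tested probes, the shares that also stand beside the next 2 lists. NQO1, a quinone reductase, fell by 0.86 (adjusted p = 2.6e-05), BLVRB, biliverdin reductase B, by 0.56 (adjusted p = 0.000279) and POR, the electron donor of cytochromes P450, by 0.46 (adjusted p = 0.0028). CYBA, a subunit of the NADPH oxidase of phagocytes, rose by 0.42 (adjusted p = 0.000126) by its brightest probe. The 1 other tested CYBA probe did not change in the same direction, so no direction can be stated for CYBA. Of 10 measured transcription regulators only THRA, a thyroid hormone receptor, passed, with a rise of 0.24 (adjusted p = 0.00572). Of 6 genes of glucose and fructose entry only SLC2A5, a fructose transporter, passed, and fell by 1.27 (adjusted p = 0.0109).

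**Figure D5:**
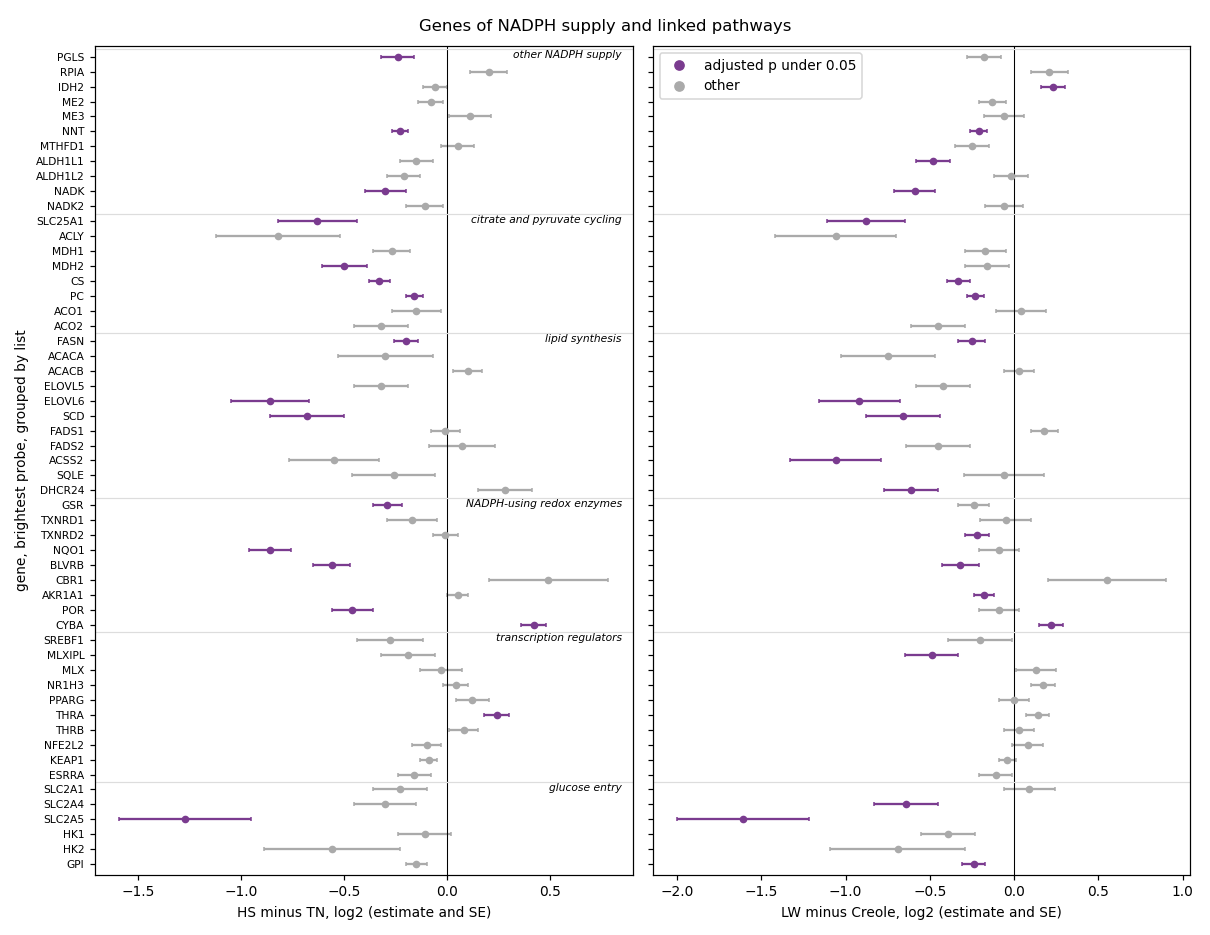
HS minus TN (left) and LW minus Creole (right) differences in log2 intensity (x axes, estimate and SE) of measured genes of the 6 lists, by gene (y axis), purple where the adjusted p in limma was under 0.05. SLC25A1, ELOVL6, SCD, NQO1 and SLC2A5 lie to the left of 0 for HS minus TN.

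Between LW and Creole, more genes of these lists were lower than higher in LW past the threshold, beside 7.43% lower and 6.89% higher of all tested probes and a median of 0.002. Of the NADPH supply genes 3 were lower and 1 higher with a median of -0.16. NADK was lower by -0.59 (adjusted p = 0.00251), ALDH1L1, a folate enzyme that forms NADPH, by -0.48 (adjusted p = 0.00272) and NNT, the mitochondrial transhydrogenase, by -0.21 (adjusted p = 0.00843). IDH2 was higher in LW by 0.23 (adjusted p = 0.0401), and ME2 gave -0.13 (adjusted p = 0.276) and ME3 -0.06 (adjusted p = 0.788).

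Of the citrate and pyruvate genes 3 of 8 were lower in LW, led by SLC25A1 with -0.88 (adjusted p = 0.0123). Of the lipid synthesis genes 5 of 12 were lower with a median of -0.44, led by ACSS2, which makes acetyl-CoA from acetate, with -1.06 (adjusted p = 0.011), ELOVL6 with -0.92 (adjusted p = 0.0112) and SCD with -0.66 (adjusted p = 0.0491). Of the redox enzymes 3 of 9 were lower and 1 higher, with BLVRB at -0.32 (adjusted p = 0.0403) and the brightest CYBA probe at 0.22 (adjusted p = 0.0328). MLXIPL, the carbohydrate response factor ChREBP, was lower by -0.49 (adjusted p = 0.0354), the only one of 10 regulators to pass. SLC2A5 was lower by -1.61 (adjusted p = 0.00796) and SLC2A4, the insulin-responsive glucose transporter, by -0.64 (adjusted p = 0.0234), among 3 of 6 genes of sugar entry. The comparisons of temperature and of breed share all 26 arrays.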

How the data were processed

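Subcutaneous adipose tissue RNA of 26 pigs was hybridised to single-colour Agilent arrays, 1 animal per array. Per the submitters' processing notes the arrays were read with Agilent Feature Extraction 10.10.1.1. The scanner tables deposited by the authors hold linear intensities of each spot (median, mean, processed and local background), not normalised between arrays, with flags for spots well above background, saturated or non-uniform. The authors also deposited a matrix of log2, quantile-normalised median intensities for 44104 probes; every column correlated with the corresponding array here (lowest r = 1 after rounding), and it served as an alternative. The column medians of that matrix were 8.169 to 8.173, and the rule by which its probes were kept is not given in the sources used here.

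Median intensities of non-control spots were quantile-normalised and log2-transformed in R 4.3.3 with limma 3.58.1, without background correction, which can change the differences of dim probes. A probe was tested if 8 or more arrays had it well above background, which left 44703 of 60305. Of 60306 spots, 9661 were named by accession, 14498 by symbol and 195 by an older symbol, with gene tables of the Sscrofa11.1 assembly. Effects of temperature and breed were fitted together (lmFit, then eBayes with trend by intensity), and the breed by temperature interaction in a model of the 6 group means. The Benjamini-Hochberg adjustment ran over all 44703 probes, and calls needed an adjusted p under 0.05. The pen, slaughter, father and mother effects of the study's own model are not in the labels and were left out. Littermates were used per the methods, so the arrays may not be fully independent. Correlations used values with the group means removed and 100000 permutations within groups. The fits were tested on simulated data.

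The enzymes and the gene lists were chosen with earlier results of these data known, and the enzymes for their temperature difference, which is therefore given without a p-value. Where a gene had several probes, the tested probe with the highest mean level represented it. Genes of the other lists were named where they passed the threshold, with at most the 3 largest changes of a list in each direction, besides ME2, ME3 and IDH2. Some genes that this rule takes in are counted in their list but not reported here by name. Alternatives were other normalisations, filters, slide blocks, weights, the series matrix, gene means, marker scores as covariates, and leaving out each array in turn. Promoter sequences were not used here.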

Additional observations from a re-analysis of the deposited data

Results flagged for a closer look

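In the groups of 4 or 5 arrays, each of the 13 probes was examined for an array lying far from the others of its group. Of 65 such groups 3 had one by Dixon's test, and chance alone gives about 5 percent. All 3 were the same array, Creole HS replicate 5. ME1 read 12.07 there for probe O15000, against 13.82 in the nearest Creole HS array, and 12.14 for the same-sequence probe A_72_P444471, so these are not separate cases. The TKT probe O13899 read 15.44 there, against 15.70 in the nearest array. On that array the adipocyte score was 0.13 and the red blood cell score -0.31. No difference between breeds in the temperature effect passed its test.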

How the results depend on the processing

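ME1 kept a lower level in HS under the 13 planned settings, at -1.43 to -0.80, and at -1.69 for the probe of another sequence. LW minus Creole of ME1 stayed below 0 throughout but missed the threshold at -0.44 with the adipocyte score as a covariate, -0.88 with that score without LEP, -0.93 with the slide as a fixed block, -1.16 for the probe of another sequence and -0.87 without temperature in the model. Leaving out each array gave -1.18 to -0.85 for LW minus Creole and -1.40 to -1.20 for HS minus TN of ME1. The number of the 5 brightest probes past the threshold was 3 for HS minus TN and 0 with the red blood cell score as a covariate. For LW minus Creole it was 4, falling to 0 with the adipocyte score and to 2 without temperature in the model, and for any breed difference 3, falling to 0 and 1 under the same settings. Leaving out each array gave 3 to 4, 3 to 4 and 2 to 4 of them, and 0 in each case for the interaction. Background correction by normexp took HS minus TN of the dim IDH1 probe A_72_P052681 from -0.45 to -0.33, and 75th percentile scaling took it to -0.68 ± 0.32 (SE). The IDH1 probe carrying the symbol reversed LW minus Creole to -0.38. HS minus TN within F1 changed sign for IDH1 to 0.01 with the red blood cell score, and over the arrays left out lay from -0.42 to 0.01. For TALDO1 it became 0.11 with that score and 0.02 with the slide as a fixed block, and lay from -0.15 to 0.05 over the arrays left out. PGD lost its call for any breed difference without any 1 of 10 arrays (Creole HS replicates 1 to 4, Creole TN replicate 2 and each LW HS array, adjusted p up to 0.0784) and under 3 of the 13 settings (the adipocyte score, the slide as a fixed block, or no temperature in the model, up to 0.36). ME1 gained that call without any 1 of 6 arrays (adjusted p = 0.00875 without Creole HS replicate 5) and under 4 settings (75th percentile scaling, array weights, the red blood cell score, or probes well above background on all arrays, down to 0.021). TKT lost it with the adipocyte score (0.0571) and without temperature, and TALDO1 with that score (0.077). F1 minus LW lost its call for TKT without F1 HS replicate 4 or 5, F1 TN replicate 1 or 3, LW HS replicate 2 or 3 or LW TN replicate 1 (adjusted p up to 0.0586) and under 4 settings (up to 0.141), and for TALDO1 without F1 HS replicate 4 or F1 TN replicate 1 (adjusted p up to 0.0517) or under 3 settings (up to 0.0738). Over all probes, 5447 passed for HS minus TN, against 3531 without breed in the model and 528 with the red blood cell score, and 6401 for LW minus Creole, against 4193 without temperature and 529 with the adipocyte score. The cause was not tested. No paired analysis was possible because the titles carry no replicate numbers, so arrays of different groups share none. Precision is limited by 3 to 5 arrays per group, and for the IDH1 probes by their low signal.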

Other observations

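Within groups, ME1 was also set against each of the 10 cell type scores over the 26 arrays. The fibroblast and matrix score had r = -0.477 (adjusted permutation p = 0.0485) and rho = -0.56 (adjusted permutation p = 0.0222), and r = -0.529 without the 2 arrays farthest from the median of ME1. The adipocyte score had r = 0.355 (adjusted permutation p = 0.336) and the red blood cell score r = 0.549 (adjusted permutation p = 0.175), neither of which passed over the 10 lists.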
